A study of Mus musculus with 6 samples.

Results

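The genes described here are the subunits of the transcription factor NF-κB and its inhibitors. They were followed through TGF-β stimulation and treatment with the JNK inhibitor SP600125 in mouse A20 B lymphoma cells. Members were chosen by name, with earlier results of these data known, as every probe set that the array's annotation assigns to 1 of 10 listed symbols alone. Of these, 9 were measured, by 17 probe sets, among 18194 genes in all, and Nfkb1 was not analysed here. They are the subunit genes Rel, Rela, Relb and Nfkb2, the inhibitor genes Nfkbia, Nfkbib and Nfkbie, the related gene Bcl3, and Tnfaip3, whose protein is called A20 and shares only its name with the cell line.

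NF-κB is a family of dimers built from proteins with a Rel homology domain, which binds DNA. In resting cells most dimers are held in the cytoplasm by IκB proteins, and a signal that activates the IκB kinase complex leads to IκB destruction and entry of the dimers into the nucleus. Several genes of the system are themselves NF-κB targets, among them the inhibitors IκBα (Nfkbia) and IκBε (Nfkbie) and the ubiquitin editing enzyme A20 (Tnfaip3), which form negative feedback loops. In B cells c-Rel supports proliferation, and the p52 and RelB proteins, from Nfkb2 and Relb, form the alternative pathway used by the receptors for BAFF and CD40.

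A20 is an established line from a BALB/c mouse B lymphoma, and total RNA was hybridised to 1 Affymetrix mouse genome array in each of 6 conditions. The conditions were cells with neither agent (untreated), cells with the JNK inhibitor SP600125 for 24 h, cells with TGF-β for 12 h or for 24 h, and cells with TGF-β plus SP600125 for 12 h or for 24 h. The sample titles name DMSO, the vehicle, for all 3 arrays without SP600125, while a further label of the untreated array names only growth medium. The study looked for TGF-β induced genes and, among them, those whose induction SP600125 reduced. Values are linear intensities, called signals, which were set to a floor of 74.2, the median of all signals, before log2 was taken. No condition was repeated, so a pair of arrays has no test. Tests came from a limma model with TGF-β at 0, 12 and 24 h and the drug as additive terms, whose error is the departure of the 6 arrays from additivity. "Rose" and "fell" are used only for a Benjamini-Hochberg adjusted p under 0.05 over 11731 genes in that model, and ± gives its standard error. The labels do not say whether the arrays came from separate cultures, so the p-values cover no more than the scatter of these 6 arrays, which may be technical.

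The arrays were alike in scale, with median signals of 69.3 to 80.9 and 10456 to 11313 genes above the floor. One array stood apart, that of TGF-β for 24 h with SP600125: its 18S ribosomal RNA control signal was 5878.2 against 506.5 to 881.5 on the other arrays, and its actin 3′/5′ ratio 1.89 against 1.25 to 1.51. All 7 measured markers of B cells were above the floor on every array. With SP600125 3 of the 7 fell, against 3.69% of all genes tested. With TGF-β 1 of them rose at 12 h, against 2.6%, and 1 at 24 h, against 9.07%. Of T cell markers 1 to 3 of 6 were above the floor, and of fibroblast markers 1 to 4 of 8. The myeloid list, 8 genes, had 3 to 5 above the floor, with summed signals of 1263 in untreated cells, 1717 and 2580 with TGF-β, and 961.6, 1214 and 1309 on the drug arrays at 0, 12 and 24 h. Of its defining genes Cd14, Itgam and Fcgr1 were below the floor on all arrays, while Csf1r (277.1 to 405.5), Adgre1 (171.7 to 496.6) and Cd68 (262.4 to 1481.5) were above it on all 6. Cd68 rose at 24 h by 1.13 ± 0.25 and fell with SP600125 by 1.27, with a standard error of 0.20. The part of these lists and of the 18S signal in the results below was not tested. Dividing each array by its median moved the median 24 h effect of all genes from 0.07 to −0.04 and the 24 h calls from 1064 risen and 880 fallen to 684 and 1328. At 12 h the split moved from 305 and 278 to 229 and 439, and for the drug from 468 and 433 to 351 and 678.

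TGF-β raised most of the system by 24 h. Of the 9 members 6 rose at 24 h, against 9.07% of all genes tested, and 2 rose at 12 h, against 2.6%. The 6 were the subunit genes Rel, Relb and Nfkb2 and the inhibitor genes Nfkbia, Nfkbie and Tnfaip3. The median effect over the members was 0.99 at 24 h and 0.28 at 12 h, while over all genes it was 0.07 and 0.02. Nfkbia and Nfkbie were the members that rose at both times. The limma effects at 12 h take in a pair whose arrays had SP600125 for 12 h and for 24 h. On the brightest probe sets the 6 called at 24 h had higher signals in all 4 pairs of TGF-β against no TGF-β, within an arm. Of genes above the floor on at least 1 array 20.6% showed that. A pair with both arrays at the floor counts as not higher in this share. The calls came from the same arrays, so here and below the pair counts are no separate support. Of the other probe sets, that of Tnfaip3 was higher in 1 pair and lower in 3. That of Nfkbie was higher in 3 and lower in 1, and those of Nfkb2 and Nfkbia were higher in all 4. The arrays measured bulk RNA, so more cells with a transcript and more transcript per cell cannot be told apart.

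Because κB sites near a start site are the elements NF-κB binds, the bases before the members' starts were read from RefSeq promoters of build GRCm38.p6. The windows ran from 250 bases before to 50 bases after a start, and 8 of the 10 listed genes had one, all but Nfkb1 and Relb. The stretches here cover the last 130 bases before the most upstream start in that table, 5′ to 3′ on the gene's strand, with matches to the κB consensus, found on either strand, in capitals. They are, in order, Rel at chr11:23770970-23771099 (minus strand), Nfkb2 at chr19:46304607-46304736 (plus), Nfkbia at chr12:55492648-55492777 (minus), Nfkbie at chr17:45555570-45555699 (plus) and Tnfaip3 at chr10:19015411-19015540 (minus), then for contrast Rela at chr19:5637411-5637540 (plus) and Nfkbib at chr7:28766645-28766774 (minus), which did not pass the test.
Rel: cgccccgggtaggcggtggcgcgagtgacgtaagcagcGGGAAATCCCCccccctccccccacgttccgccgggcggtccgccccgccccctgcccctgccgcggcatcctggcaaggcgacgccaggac
Nfkb2: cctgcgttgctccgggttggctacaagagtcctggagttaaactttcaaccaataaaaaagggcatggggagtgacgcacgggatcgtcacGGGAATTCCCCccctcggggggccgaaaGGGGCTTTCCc
Nfkbia: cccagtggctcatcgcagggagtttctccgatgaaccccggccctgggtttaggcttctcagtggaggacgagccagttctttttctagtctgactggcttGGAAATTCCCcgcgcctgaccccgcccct
Nfkbie: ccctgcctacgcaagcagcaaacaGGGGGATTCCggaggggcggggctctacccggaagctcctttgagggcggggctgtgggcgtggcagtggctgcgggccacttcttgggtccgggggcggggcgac
Tnfaip3: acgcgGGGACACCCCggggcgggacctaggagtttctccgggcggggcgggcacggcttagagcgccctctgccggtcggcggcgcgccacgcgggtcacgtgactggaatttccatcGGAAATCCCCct
Rela: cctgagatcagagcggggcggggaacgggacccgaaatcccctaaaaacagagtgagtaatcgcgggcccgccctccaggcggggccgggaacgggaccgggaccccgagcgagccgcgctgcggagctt
Nfkbib: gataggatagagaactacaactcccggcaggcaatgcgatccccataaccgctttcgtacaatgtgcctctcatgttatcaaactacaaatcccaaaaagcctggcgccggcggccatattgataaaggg

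A match to the κB consensus, sought on both strands with overlaps allowed, lay in a window of 6 of the 8 genes, Rel, Nfkb2, Nfkbia, Nfkbie, Tnfaip3 and Bcl3, whereas 5.14% of 27025 genes in the promoter table held one. In Nfkbia the match lay 29 to 20 bases before the start. Bcl3 had its match after the start, ggcagGGGAAGTCCCgctgc at chr7:19822739-19822758 (minus strand). A match is a description of letters and not a site. For Rela and Nfkbib these letters are not in the window, while Bcl3, which did not pass the test either, held a match.

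**Figure D1:**
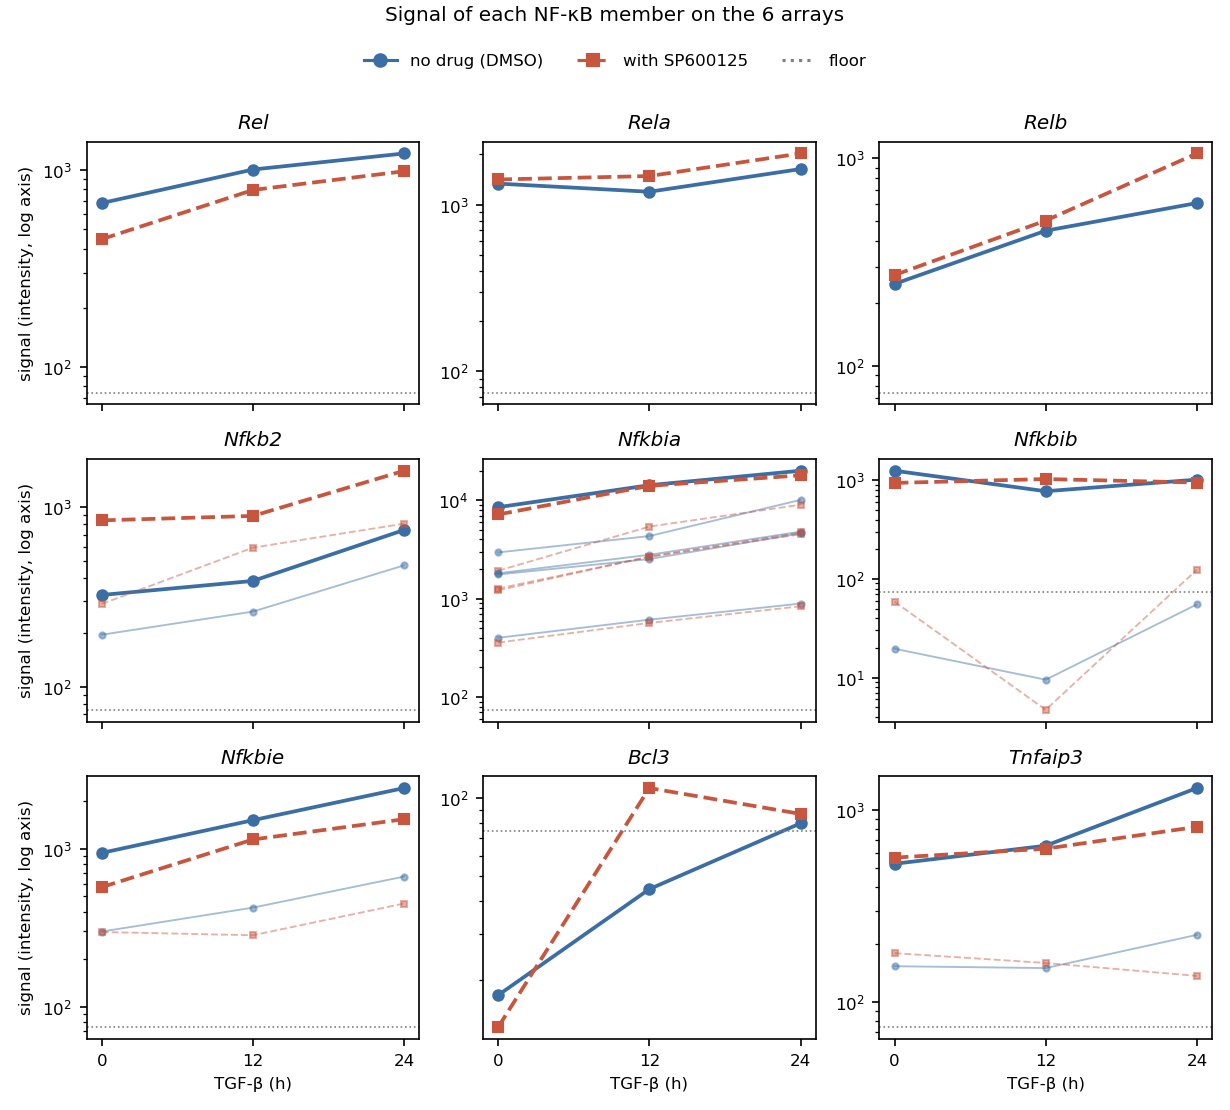
Signal of each of the 9 members (intensity, log axis with its own range in each panel) against hours of TGF-β, for the arrays without drug (blue circles) and with SP600125 (red squares), 1 array per point. Thick lines are the brightest probe set, thin lines the gene's other probe sets, and the dotted line is the floor of 74.2; Nfkbia climbs from 8511.9 to 19968.4 without drug, Nfkb2 lies higher with SP600125 at all 3 times, and Nfkbie lies lower.

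Among the inhibitors, Nfkbia, which encodes IκBα, the fast feedback inhibitor, had a signal of 8511.9 in untreated cells, 14239.2 after 12 h with TGF-β and 19968.4 after 24 h. With SP600125 the values were 7174.8, 14028.9 and 17923.5. Both arms climbed at each step, and at every time the array with drug was the lower by at most 1.19-fold. Among the 4 other probe sets the drug array at 0 h was 1.12-fold to 1.54-fold lower, and at 12 h 2 of them were higher with drug, by 1.25-fold and 1.06-fold. In log2 units Nfkbia rose 0.85 ± 0.10 by 12 h (limma, adjusted p 0.00501) and 1.28 ± 0.10 by 24 h (adjusted p 0.000501), and 4 of 4 pairs were higher. When each probe set was fitted as its own feature, all 5 probe sets of the gene rose at 24 h, by 1.19 to 2.00, and 4 of them at 12 h.

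Nfkbie encodes IκBε, a slower inhibitor prominent in B cells. Its signals without drug were 942.0, 1517.9 and 2426.0 at 0, 12 and 24 h, and with drug 571.7, 1145.6 and 1540.0. Every drug array was thus below its partner, while both arms climbed. The gene rose 0.85 ± 0.14 by 12 h (limma, adjusted p 0.0191) and 1.40 ± 0.14 by 24 h (adjusted p 0.00161), and 4 of 4 pairs were higher. Its other probe set went from 299.1 to 424.0 and 667.3 without drug and from 297.1 to 283.4 and 450.2 with it, and at 24 h had 0.88 ± 0.25, which missed the threshold. The 12 h call was lost without the array of TGF-β for 12 h, at 0.99, and without that of TGF-β for 12 h with SP600125, at 0.70.

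IκBβ, from Nfkbib, behaved differently. Its signal was 1252.7, 776.7 and 1018.3 at 0, 12 and 24 h without drug and 942.6, 1032.0 and 950.8 with it. The TGF-β arrays lay below the untreated one without drug and slightly above their partner with drug. Its effects were −0.28 ± 0.20 at 12 h and −0.14 ± 0.20 at 24 h, with 95% intervals of ± 0.47 on both, and neither passed. A further probe set was under the floor on 5 of the 6 arrays.

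Tnfaip3 encodes A20, which removes activating ubiquitin chains and shuts NF-κB signalling off. Its signals were 526.8, 654.2 and 1307.1 at 0, 12 and 24 h without drug, and 567.2, 631.2 and 820.3 with it. The 24 h array without drug thus stood above the other 5. The gene rose by 0.92 ± 0.22 at 24 h (limma, adjusted p 0.027; 4 of 4 pairs higher), and was at 0.23 ± 0.22 at 12 h. The 24 h call was lost without the array of TGF-β for 24 h, at 0.57, without the untreated array, at 0.69, under median scaling, at 0.79, with probe sets averaged, at 0.50, and with a variance prior lacking a trend. A second, dimmer probe set had signals of 154.1, 150.7 and 224.5 without drug and 180.3, 160.2 and 137.2 with it, an effect of 0.07 ± 0.31 at 24 h.

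Bcl3, an atypical IκB protein that acts in the nucleus with p50 or p52 dimers, was near the floor. Its signals were 17.5, 44.6 and 79.7 without drug and 13.2, 108.8 and 86.6 with it, so only 3 of the 6 arrays, all with TGF-β, passed 74.2. The changes are bounds: at least 1.07-fold higher at 24 h without drug and at least 1.47-fold higher at 12 h with it. No effect of Bcl3 passed the test.

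Of the subunits, Relb and Nfkb2 had the widest ranges among the 9 members, with log2 spans of 2.09 and 2.30 over the 6 arrays. Relb signals were 247.8, 447.3 and 608.1 at 0, 12 and 24 h without drug, and 273.4, 500.6 and 1054.6 with it. The highest was the array of TGF-β for 24 h with SP600125, the one with the outlying 18S signal. Relb rose by 1.62 ± 0.24 at 24 h (limma, adjusted p 0.00517; 4 of 4 pairs higher), and its effect was 1.30 without that array, which passed with genes filtered again on 5 arrays and not with the genes of the 6-array fit kept. At 12 h it was at 0.86 ± 0.24 and missed the threshold, at an adjusted p of 0.0789 in limma.

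Nfkb2, the gene of the p100 precursor and p52, had signals of 323.6, 387.4 and 744.8 at 0, 12 and 24 h without drug and 842.2, 891.6 and 1591.2 with it. In this probe set little separated 12 h from 0 h in either arm, and the climb came between 12 h and 24 h. It rose by 1.06 ± 0.17 at 24 h (limma, adjusted p 0.00711; 4 of 4 pairs higher), and was at 0.17 ± 0.17 at 12 h. The other probe set read 194.4, 261.5 and 473.2 without drug and 288.6, 593.6 and 807.5 with it, so that with drug most of its climb came by 12 h. Fitted on its own it rose by 1.38 ± 0.25 at 24 h and stood at 0.73 ± 0.25 at 12 h.

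Rel, which encodes c-Rel, had signals of 681.0, 1008.2 and 1216.7 without drug and 446.4, 793.6 and 988.2 with it. Both arms climbed, and each drug array lay below its partner. Rel rose by 0.99 ± 0.16 at 24 h (limma, adjusted p 0.00754; 4 of 4 pairs higher). At 12 h it was at 0.70 ± 0.16, just outside the threshold at an adjusted p of 0.0527.

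Rela, the gene of p65, the main activating subunit of the classical pathway, did not pass at either time. Its signals were 1336.7, 1194.2 and 1634.5 without drug and 1415.1, 1483.6 and 2028.5 with it, and its effects were −0.05 ± 0.13 at 12 h and 0.40 ± 0.13 at 24 h. The 24 h value missed the threshold at an adjusted p of 0.0708 in limma, and its 95% interval was ± 0.30.

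These calls depended on which dim genes entered the fit. Leaving out 1 array at a time, with genes filtered on the arrays left, gave 5 or 6 members at 24 h and 1 to 4 at 12 h. With the genes of the 6-array fit kept instead, it gave 2 at 24 h when either unstimulated array or either 12 h array was left out, 0 without the array of TGF-β for 24 h or that of TGF-β for 24 h with SP600125, and 0 at 12 h throughout. With no filter at all limma called 0 members and 3 of 18194 genes at 24 h, where 3046 had an unadjusted p under 0.05.

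**Figure D2:**
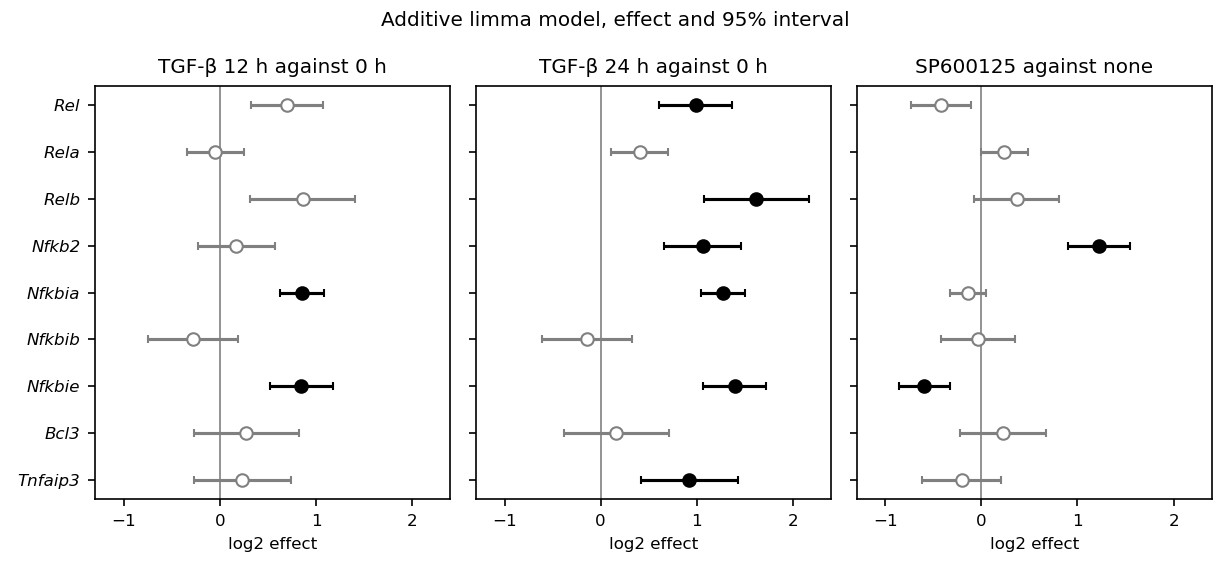
Log2 effects of the 9 members (horizontal axis) in the additive limma model, from left to right for 12 h of TGF-β, 24 h of TGF-β and SP600125, with 95% intervals as bars. Filled points passed the adjusted p threshold and open points did not; 6 are filled at 24 h, 2 at 12 h and 2 for the drug, with Nfkb2 to the right of 0 and Nfkbie to the left.

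All 9 members had a higher signal at 24 h than at 12 h of TGF-β without drug on the floored scale, against 47.3% of genes, and 7 did with drug, against 52.5%. In these shares a gene at the floor on both arrays counts as not higher, while all members but Bcl3 were above the floor on every array. The additive limma model called 0 of them for 24 h against 12 h, where 2 of all genes, 0.017%, were called, and 6 members had an unadjusted p under 0.05, as did 15.3% of all genes. Nfkb2 had the largest difference, 0.89 ± 0.17, and was 1.92-fold higher at 24 h without drug and 1.79-fold higher with it. Relb followed with 0.76 ± 0.24, and Tnfaip3 with 0.69 ± 0.22. At least 2-fold between these times were 0 members without drug, against 1.46% of genes, and with drug only Relb at 2.11-fold, against 1.85%. With the floor at the 25th percentile of all signals Nfkb2 and Nfkbia passed the test. In the arm with drug SP600125 was given for as long as TGF-β, 12 h or 24 h. The time with TGF-β and the time with drug cannot be told apart there, and the limma differences include that arm.

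SP600125 moved Nfkb2 and Nfkbie in opposite directions. The drug arrays at 0, 12 and 24 h of TGF-β had SP600125 for 24, 12 and 24 h, so the limma drug effect pools unlike exposures. Nfkb2 rose with the drug by 1.23 ± 0.14 (limma, adjusted p 0.00316; 3 of 3 pairs higher), and was 2.60-fold higher without TGF-β, 2.30-fold after 12 h and 2.14-fold after 24 h of it. Nfkbie fell with the drug by 0.59 on the log2 scale, with a standard error of 0.12 (limma, adjusted p 0.0218; 3 of 3 pairs lower), and its signal was 1.65-fold, 1.32-fold and 1.58-fold lower at these times. These were the 2 members called for the drug, where 3.99% of all genes rose and 3.69% fell. Nfkb2 was also the sole member with a difference of at least 2-fold in any drug pair, against 2.84% of genes higher and 1.17% lower at 0 h, 1.63% and 1.04% at 12 h, and 2.92% and 1.78% at 24 h.

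The second Nfkb2 probe set gave a drug effect of 0.84 ± 0.20 when fitted on its own and passed, with differences of 0.57, 1.18 and 0.77 at 0, 12 and 24 h. The brighter one is of a type whose probes may also match other transcripts. The second Nfkbie probe set was at −0.39 ± 0.20 and did not pass. Its signal hardly differed with the drug at 0 h, 297.1 against 299.1. The Nfkbie drug call was lost without the untreated array and without the array of SP600125 alone, at −0.53 in both cases, and when the probe sets of a gene were averaged, at −0.49. With the genes of the 6-array fit kept, leaving out any 1 of the 6 arrays ended both drug calls, with Nfkb2 at 1.15 to 1.29.

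Rel had the same direction as Nfkbie, lower with the drug in 3 of 3 pairs by 1.53-fold, 1.27-fold and 1.23-fold, but its effect of −0.42 ± 0.13 missed the threshold at an adjusted p of 0.103 in limma. Relb was higher in 3 of 3 pairs, by 1.10-fold and 1.12-fold at 0 h and 12 h and 1.73-fold at 24 h, with an effect of 0.37 ± 0.19 that did not pass. Without the array of TGF-β for 24 h with SP600125 the Relb effect was 0.15. Rela was higher in 3 of 3 pairs, from 1.06-fold to 1.24-fold and did not pass. Signs alike in all 3 pairs are common, at 22.0% of genes higher and 16.5% lower. In these shares a pair with both arrays at the floor counts as neither. The drug effects of Nfkbia, Nfkbib and Bcl3 were −0.14 ± 0.08, −0.03 ± 0.17 and 0.22 ± 0.19. Tnfaip3 was at −0.21 ± 0.18, made of 1.08-fold higher at 0 h, 1.04-fold lower at 12 h and 1.59-fold lower at 24 h.

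**Figure D3:**
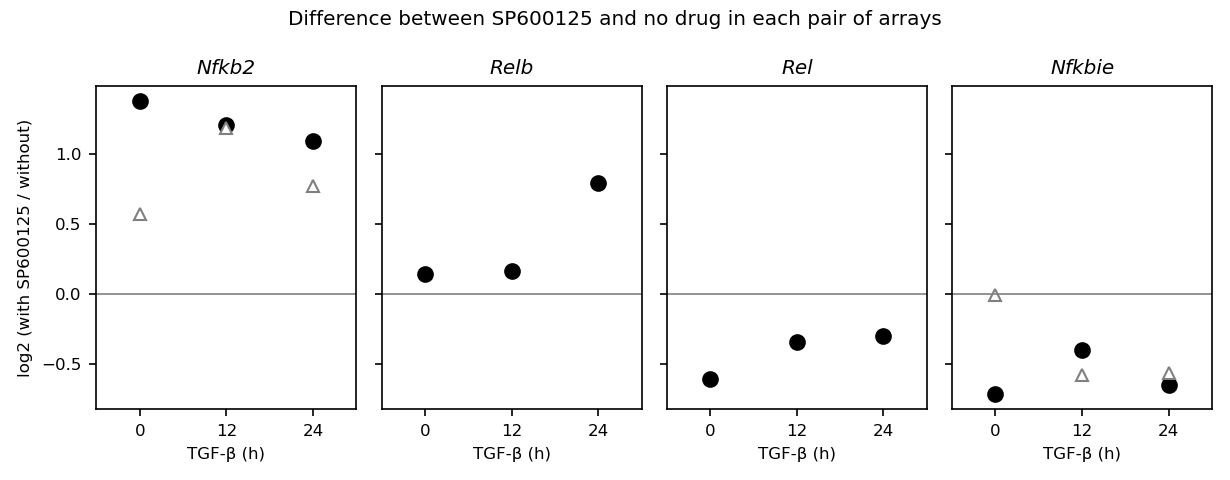
Log2 difference between the array with SP600125 and its partner without it (vertical axis) at 0, 12 and 24 h of TGF-β, for 4 members and each of their probe sets (filled circles, brightest; open triangles, other). Both Nfkb2 probe sets lie above 0 in all 3 pairs, Rel lies below 0 in all 3, and Relb is 0.79 at 24 h against 0.14 and 0.16 before.

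The design also asks whether SP600125 reduces an induction. Whether a response to the drug ran through JNK was not tested. Of the 9 members 5 were at least 2-fold higher at 24 h of TGF-β without drug, against 4.95% of all genes, and 0 at 12 h, against 2.96%. They were Nfkbie at 2.58-fold, Tnfaip3 at 2.48-fold, Relb at 2.45-fold, Nfkbia at 2.35-fold and Nfkb2 at 2.30-fold. With SP600125, 4 were at least 2-fold higher at 24 h, against 4.2% of genes: Relb at 3.86-fold, Nfkbie at 2.69-fold, Nfkbia, whose log2 difference was 1.32, and Rel at 2.21-fold. At 12 h with the drug Nfkbie reached 2.00-fold and no other member reached 2-fold, against 2.24% of genes. These counts use the brightest probe set. Of the others, 3 of Nfkbia were 2.10-fold to 2.81-fold higher at 12 h with the drug and that of Nfkb2 2.06-fold, while that of Nfkbie was 1.05-fold lower. At 24 h with the drug that of Nfkb2 was 2.80-fold higher and that of Nfkbie 1.515-fold. The other probe set of Tnfaip3 was 1.46-fold higher at 24 h without drug and 1.31-fold lower at 24 h with it. Both arms of a member rest on separate arrays, and the drug arm at 12 h is set against cells that had the drug for 24 h.

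The study's criterion for JNK dependence was a loss of over 75% of the induction, applied to genes at least 2-fold higher without drug, 5.9% of genes. Of the 5 members 0 met it on their brightest probe set, against 23.8% of the 770 inducible genes. The increase in signal at 24 h was 67.6% smaller with the drug for Tnfaip3, 34.8% smaller for Nfkbie and 6.18% smaller for Nfkbia. For Relb and Nfkb2 it was larger with drug than without, 781.2 against 360.3 and 749.0 against 421.2. These increases are of the brightest probe sets. The other Tnfaip3 probe set, under 2-fold without drug, went from 154.1 to 224.5 without drug and from 180.3 to 137.2 with it. That of Nfkbie went from 299.1 to 667.3 without drug and from 297.1 to 450.2 with it. For every other Nfkbia probe set the 24 h ratio was larger with drug than without. As a ratio the 24 h change of Nfkb2 was 1.89-fold with drug and 2.30-fold without on the brightest probe set. On the other probe set the order was reversed, at 2.80-fold with drug and 2.43-fold without.

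A limma model took 12 h and 24 h as repeats of a single TGF-β state, so a change between them counted as error. It tested the drug dependence averaged over both times, and called 0 members and 0 of all 11731 genes for the interaction. With that error, 0 calls do not show that a drug dependence was absent. No member had an unadjusted p under 0.05 in this model, while 315 genes, 2.69%, did. The interaction of Tnfaip3 was −0.47 with a 95% interval of ± 1.72, and that of Relb 0.34 with ± 1.89, so for both the interval holds differences of over 2-fold in either direction. For Nfkbib, whose 4 TGF-β pairs differed in sign between the arms, it was 0.57 with ± 0.88.

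The rest of the pathway was followed with 5 lists of 91 genes, of which 71 were tested, without a test of a list. The lists were chosen with earlier results of these data known, so their shares are not independent of these data. Of the 71 genes 24 rose and 1 fell at 24 h, or 33.8% and 1.41%, against 9.07% and 7.5% of all genes, and the median effect was 0.37 against 0.07. At 12 h 6 rose, 8.45% against 2.6%. With SP600125 3 rose and 3 fell, 4.23% each against 3.99% and 3.69%, but 1 rose and 7 fell under median scaling, and 0 rose and 5 fell without either of the 24 h TGF-β arrays. The number risen at 24 h was 12 when probe sets were averaged, 11 with a variance prior lacking a trend, 15 without the untreated array and 0 with no filter. Leaving out 1 array with the genes of the 6-array fit kept gave 0 to 7, and over all alternatives the 12 h number ran from 0 to 13.

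Among receptors that feed the pathway 2 of 10 rose at both times, with a median effect of 0.35 at 24 h. Cd40, which engages both arms of NF-κB, had signals of 1422.1, 2448.0 and 2871.2 without drug and 491.1, 1734.3 and 2638.4 with it. It rose by 1.30 ± 0.28 and 1.72 ± 0.28, and both other probe sets rose too. Tnfrsf13c, the BAFF receptor, which signals through p52 and RelB, fell with the drug by 1.24 on the log2 scale, with a standard error of 0.12. Its signals were 1459.9, 1980.8 and 1874.3 without drug and 536.5, 914.8 and 833.0 with it, so every drug array lay below every array without drug.

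Of 12 adaptors and ubiquitin ligases 6 rose at 24 h and 1 at 12 h, with a median of 0.57 at 24 h. Birc2, a ubiquitin ligase that restrains the alternative pathway, rose by 0.57 ± 0.13 at 12 h (limma, adjusted p 0.0451). With each probe set fitted as its own feature, this 12 h effect missed the threshold, at an adjusted p of 0.0540 in limma. Traf1, a TRAF protein encoded by a known NF-κB target, rose by 1.28 ± 0.28 at 24 h, while its other probe set, at 0.79, did not pass. Its signals were 109.4, 118.6 and 310.9 without drug and 31.8, 105.0 and 154.1 with it. Of 9 kinases and their partners 3 rose at 24 h, with a median of 0.32. Tab2, which brings the kinase TAK1 to ubiquitin chains, rose by 0.56 ± 0.12 at 24 h and by 0.38 ± 0.09 with the drug. The drug call was near the threshold (limma, adjusted p 0.0488) and missed it with each probe set fitted as its own feature. The other Tab2 probe set passed neither, at 0.33 and 0.25.

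The other 13 inhibitors and brakes had a median of 0.23 at 24 h. In this list 1 of 13 rose, near the 9.07% of all genes, and it was Nfkbiz, an inducible nuclear IκB protein. Its signals were 181.5, 200.5 and 470.3 without drug and 316.7, 368.9 and 839.2 with it. It rose by 1.39 ± 0.22 at 24 h and by 0.84 ± 0.18 with SP600125. Both of its other probe sets rose at 24 h, but for the drug they stood at −0.07 and 0.73 and did not pass.

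Of 27 target genes tested 12 rose and 1 fell at 24 h and 3 rose at 12 h, and their median at 24 h was 0.62. Cd83, a surface protein of activated B cells, led with 1.99 ± 0.26 at 12 h and 2.58 ± 0.26 at 24 h. Sod2, the mitochondrial superoxide dismutase, fell by 0.66 at 24 h, with a standard error of 0.13. With the drug Bcl2l1, a survival gene, rose by 0.43 ± 0.11 (limma, adjusted p 0.0490), although 1 of its 2 other probe sets was at −0.01. Il10, an inhibitory cytokine, fell by 1.26 with the drug, with a standard error of 0.31 (limma, adjusted p 0.0480). Its signals were 202.8, 423.2 and 940.0 without drug and 120.7, 245.3 and 199.0 with it. The drug calls of Bcl2l1 and Il10 missed the threshold with each probe set fitted as its own feature.

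**Figure D4:**
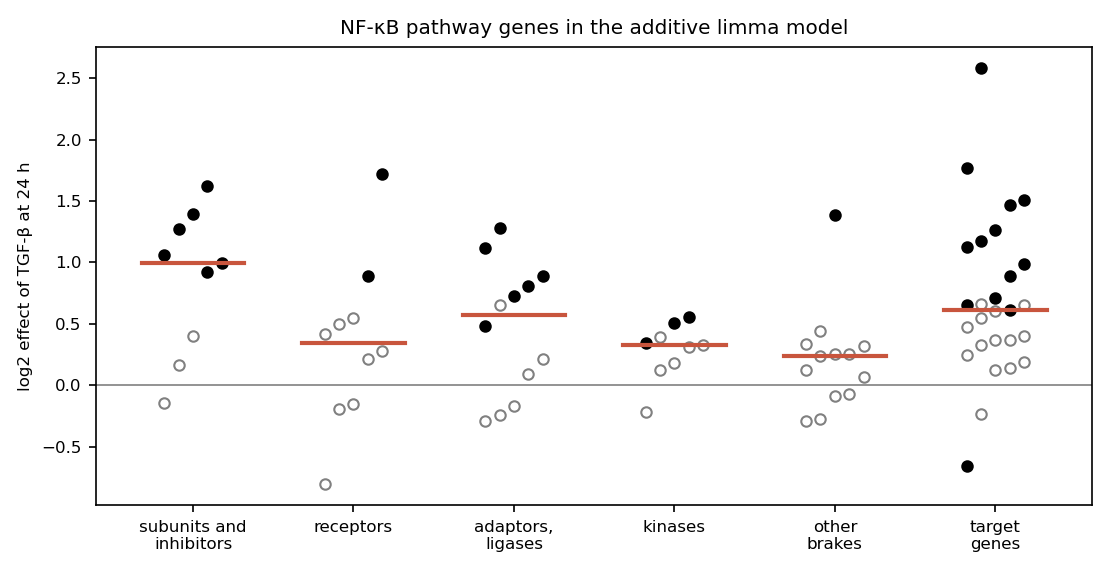
Log2 effect of 24 h of TGF-β in the additive limma model (vertical axis) for the 9 members and for the tested genes of 5 pathway lists, 1 point per gene. Filled points passed the adjusted p threshold, open points did not, and red bars are medians, which run from 0.99 for the members to 0.23 for the other brakes.

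The genes nearest in pattern to the 3 members of widest range were sought among 9105 genes above the floor on all 6 arrays, by the root mean square difference of mean-centred log2 signals over the arrays. Nearest to Nfkb2 were Crebrf at 0.13, Tsc22d3 at 0.15 and Txnip at 0.16. Nearest to Relb were Marcks at 0.10, Zfp36 at 0.12 and Kansl1l at 0.14. For Nfkbie they were Slc29a3 at 0.11, Ctsh at 0.14 and Fcmr at 0.14. Txnip, for example, had signals of 2113.9, 2543.1 and 4789.0 without drug and 4438.0, 4511.0 and 8345.5 with it. As for Nfkb2, each drug array was above its partner and the combined 24 h array was the highest.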

How the data were processed

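The authors deposited 1 linear intensity per probe set and array for 45101 probe sets, and the submitters' processing notes name GCOS 1.2 as the software, with no settings. The 2% trimmed mean was 500.0 on all 6 arrays, so intensities were used without rescaling. Their number, 1 per condition, limits the precision. The platform annotation gave 34958 probe sets a single symbol, 932 several and 9211 none. A gene was its brightest probe set. Dim signals were raised to a floor at the 50th percentile. Tests used limma 3.58.1 in R 4.3.3 with an intensity trend, for genes exceeding that floor on 2 or more arrays. Single pairs were read by a 2-fold rule over genes exceeding it on any array. The additive model had 2 residual degrees of freedom and a prior of 5.97, the interaction model a prior of 2.79. The 24 h test of the additive model was tested on simulated data. Named pathway genes were those called with the largest effect per list, term and direction, and all members were named. Members and lists were chosen with earlier results of these data known. Alternatives changed the floor, scaling, probe set rule, filter, prior and arrays.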

Additional observations from a re-analysis of the deposited data

Results flagged for a closer look

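Nfkbib differed in sign between the arms: its signal was lower with TGF-β in both pairs without drug, at −0.69 and −0.30, and higher in both pairs with SP600125, at 0.13 and 0.01. The mean change without drug minus that with drug was −0.57, and the limma interaction test did not pass. The 18S ribosomal RNA control probe set, which no comparison used, read 5878.2 on the array of TGF-β for 24 h with SP600125, against 506.5 in untreated cells.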

How the results depend on the processing

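The number of members called at 12 h, 2, became 4 with the floor at the 25th percentile or with log2(signal + 32), and 0 with probe sets averaged, with no filter or with a prior lacking a trend. At 24 h the 6 became 0 with no filter. For SP600125 the 2 became 1 with probe sets averaged or a prior lacking a trend, and 0 with no filter. For 24 h against 12 h the 0 became 2 with the floor at the 25th percentile or with log2(signal + 32). Leaving out each array, in either gene set, gave 0 to 4 at 12 h, 0 to 6 at 24 h, 0 to 2 for the drug and 0 to 1 for 24 h against 12 h. The version that kept the genes of the 6-array fit was added after seeing the data. Genes called over the whole array at 12 h, 24 h and for the drug, 583, 1944 and 901, were 86, 964 and 175 with probe sets averaged, 22, 562 and 92 with a prior lacking a trend, and 2, 3 and 0 with no filter. At 12 h 1024 were called with the floor at the 25th percentile. For 24 h against 12 h, 2 calls became 291 with that floor, and for the interaction 0 became 406 with no filter. The interaction could not be fitted without either unstimulated array. The 14 differences of at least 2-fold among members over 9 pairs stayed within 1.5 times under other floors, scalings and probe set rules. That limit does not mean that each stayed at 2-fold or more. No member effect that was called had the opposite sign under an alternative. No paired analysis was possible because each condition had 1 array and the labels number no replicates. The additive model itself compares the drug within TGF-β times.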
